A study of Homo sapiens with 6 samples.

Results

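The genes described here are 48 interferon-stimulated effector genes, measured by RNA sequencing in OVCAR5 cells with and without METTL3 overexpression. They were chosen by name as genes whose transcription is driven by interferon signaling, and their counts were taken from the rows of the count table whose gene identifiers carry those names. The OAS genes, the sensors of double-stranded RNA and the HLA genes were left aside. All 48 were found among the 60649 gene rows, and all 48 passed the filter on low counts, which left 22038 genes for testing. METTL3 is the catalytic subunit of the complex that writes N6-methyladenosine on RNA, and OVCAR5 is an established human ovarian cancer cell line of epithelial origin.

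Both groups of libraries came from OVCAR5 cells that had been transduced with lentivirus and selected with puromycin to give stable lines, with the METTL3 construct in the METTL3 group and the empty vector in the PCDH group. Each group held 3 libraries, numbered 1, 2 and 3 in the labels. One label calls the control cells parental while the treatment text gives them the empty vector, and they are called vector control here. Beyond the lentivirus and puromycin, no interferon, virus or drug is named for any of the 6 libraries. How many transductions or clones stand behind each line is not given in the sources used here, nor whether libraries of a group came from separate cultures, so p-values measure the spread between these libraries, which may be technical. Total counts ran from 96633925 to 125463386, and the smallest count of any of the 48 genes in any library was 103. Expression is given as CPM, the count of a gene per 1000000 counts of its library after scaling by TMM, always in the order of replicates 1, 2 and 3.

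METTL3 itself was measured at 152.4, 165.5 and 175.3 CPM with the construct, in contrast to 80.6, 68.6 and 71.6 CPM with the empty vector. Every library with the construct was above every vector library. The epithelial markers EPCAM, KRT8, KRT18, KRT19 and CDH1 all passed the filter, with a summed level from 6912 to 7905 CPM with METTL3 and from 5593 to 8833 CPM with the vector. Of the 4 leukocyte markers only CD14 passed the filter, and the leukocyte sum was at most 11.5 CPM, with PTPRC, which marks leukocytes in general, at most at 0.0708 CPM. Summed endothelial markers were at 7.81 to 21.9 CPM with METTL3 and 4.87 to 8.08 CPM with the vector. For fibroblast markers the ranges were 16.5 to 18.1 and 8.07 to 17.8 CPM, with COL1A2 and DCN each at or under 0.0543 CPM.

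Interferons bind receptors that activate the kinases JAK1 and TYK2, which phosphorylate transcription factors. STAT2 and IRF9 are parts of the complex ISGF3, which enters the nucleus and binds the interferon-stimulated response element in the promoters of its targets. Many of the targets block viral entry, translation or replication, and many tumor cell lines hold some of them above zero without added interferon.

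Since ISGF3 binds that element, promoters from RefSeq (build GRCh38.p14) were searched for the core of the element, GAAANNGAAA, and for the reverse complement TTTCNNTTTC, in the 250 bases before each gene start. Overlapping matches were counted separately. A promoter was found for 39 of the 48 genes, and 26 of these 39, or 66.7%, held the core, compared with 3.71% of all 27305 genes with a promoter in the table. The gamma-activated site, TTCNNNGAA, which reads the same on both strands and can overlap the core, was present in 10 of the 39 (25.6%) and in 8.09% of all genes. These are matches of letters and not shown sites of binding. The 48 genes were chosen by name as driven by interferon, so their higher share is not an independent result. The windows below are shown since they belong to genes on which the results turn, in 5′ to 3′ direction of the gene, with the first core match of the window in capitals. IFIT1 and SAMD9 stand for genes high in vector control replicate 1 alone, ISG15, IFI27 and MX1 for genes high in replicate 1 of both groups, and LGALS3BP for genes high with METTL3. In GENCODE 44 the IFIT1 and SAMD9 windows lie outside the gene, those of ISG15, IFI27 and MX1 lie in introns of longer transcripts of the same gene, and the LGALS3BP window shares 1 base with the first exon.
IFIT1, chr10:89392482-89392541, plus strand: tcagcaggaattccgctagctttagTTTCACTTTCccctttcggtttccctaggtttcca
ISG15, chr1:1013359-1013418, plus strand: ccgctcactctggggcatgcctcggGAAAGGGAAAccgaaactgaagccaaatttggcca
SAMD9, chr7:93118081-93118140, minus strand: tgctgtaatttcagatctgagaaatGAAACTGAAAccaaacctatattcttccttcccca
IFI27, chr14:94110603-94110662, plus strand: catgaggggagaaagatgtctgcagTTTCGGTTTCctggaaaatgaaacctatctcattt
MX1, chr21:41431829-41431888, plus strand: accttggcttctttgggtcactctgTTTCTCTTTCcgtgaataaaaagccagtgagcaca
LGALS3BP, chr17:78979947-78980006, minus strand: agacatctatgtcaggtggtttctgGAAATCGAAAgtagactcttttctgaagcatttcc

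The genes spanned a wide range of expression in these cells without added interferon. The mean over the 6 libraries was above 10 CPM for 38 genes and below 5 CPM for 10. Per kilobase of the canonical transcript, IFITM3 was highest, at 572.8 CPM per kb, followed by LGALS3BP (247.6), BST2 (121.4), IFITM2 (118.5) and ISG15 (102.3). IFITM2 and BST2, next to each other in this order, were closer than the spread between libraries of either gene. At the low end were RSAD2 (0.489), XAF1 (0.449) and IFI44L (0.260 CPM per kb).

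**Figure D1:**
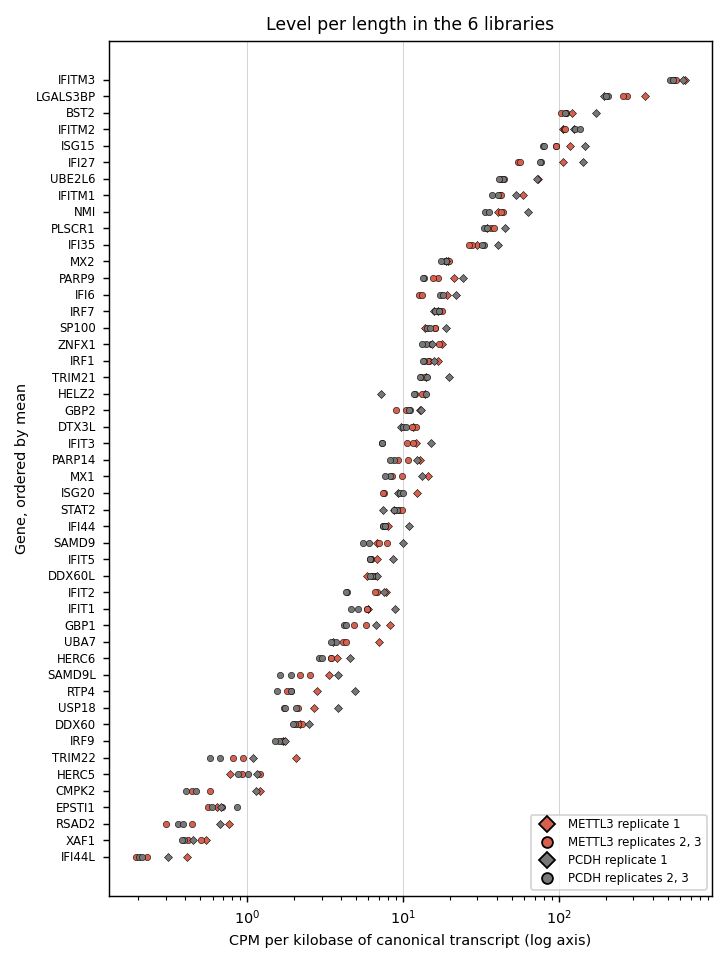
Level of each of the 48 genes in CPM per kilobase of canonical transcript, on a log axis, with 1 point per library, ordered by the mean. Red points are METTL3 and gray points vector control libraries, with diamonds for replicate 1. The scale runs from 0.260 CPM per kb for IFI44L to 572.8 for IFITM3, and diamonds lie at the right end of many rows.

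The first comparison asked whether METTL3 overexpression changed these genes when all 6 libraries were used. It gave 0 genes called of 48, and the background was also empty, with 0% of the 22038 tested genes called higher and 0% called lower (edgeR's quasi-likelihood test, adjusted p under 0.05). METTL3 itself was not called in this comparison either, with a log2 difference of 1.16 (standard error 0.117, adjusted p = 0.072 from edgeR). At an unadjusted p under 0.05 there were 4 of the 48 genes and 1830 of all genes. The 4 were LGALS3BP and UBA7 with higher values and IFITM2 and IFI35 with lower values. By direction alone, 29 of the 48 had a positive and 19 a negative log2 difference, with a median of 0.041, and the median of all tested genes was -0.018. DESeq2 called 1 of the 48, LGALS3BP, and 280 of all genes. The 3 METTL3 libraries lay wholly above the 3 vector libraries for UBA7, DTX3L and LGALS3BP and wholly below them for IFITM2 and IFI35, which is 3 and 2 of 48. Among all genes tested, 8.47% lay wholly above and 8.93% wholly below. No exact permutation test of 3 libraries against 3 can go below a two-sided p of 0.1.

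**Figure D2:**
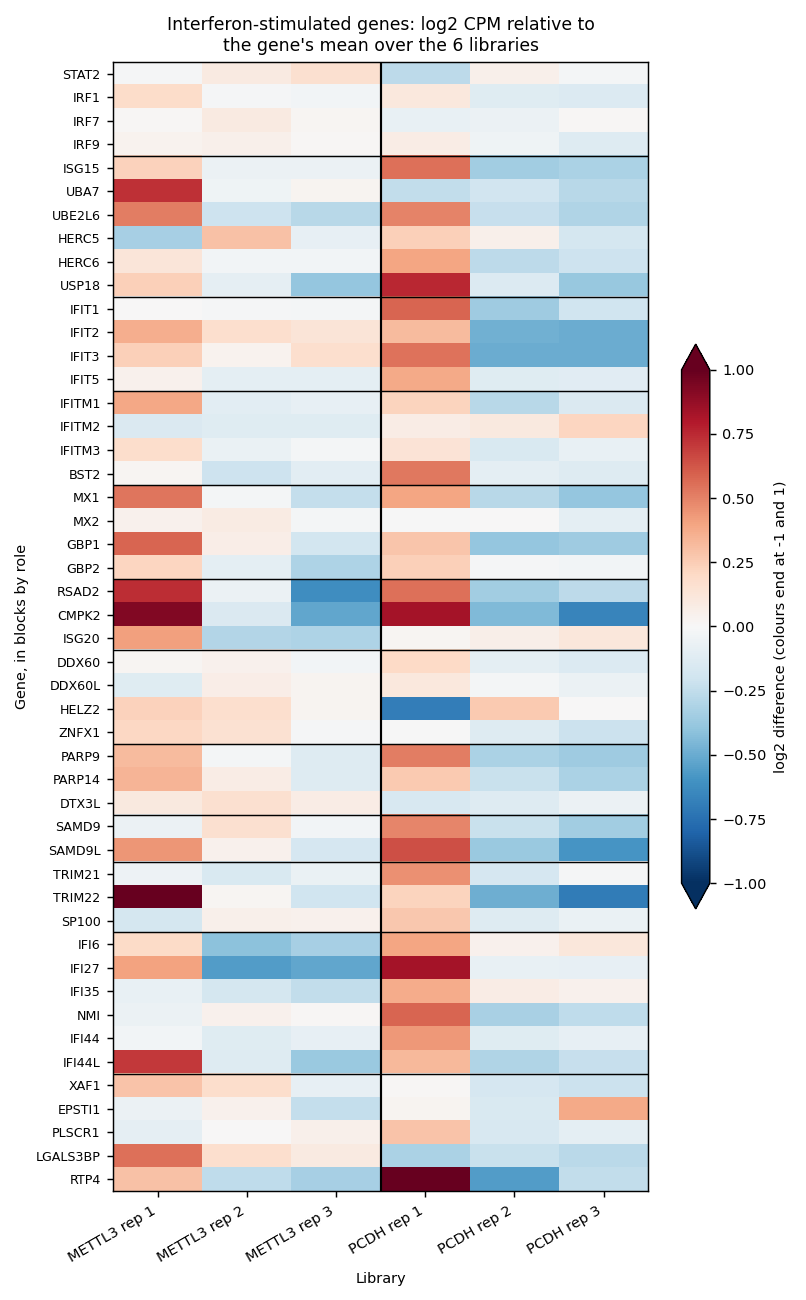
Log2 CPM of the 48 genes in the 6 libraries relative to each gene's mean over the libraries, in blocks by role, with red above and blue below the mean. The replicate 1 columns are mostly red, with median deviations of 0.200 for METTL3 replicate 1 and 0.282 for vector control replicate 1, and the vector control replicate 2 and 3 columns mostly blue, at -0.158 and -0.160.

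LGALS3BP (ENSG00000108679.13, GRCh38 chromosome 17, 78971238 to 78979947), a secreted glycoprotein that binds galectins and is induced by interferon, was the gene with the smallest p-value. It was at 780.0, 597.9 and 566.1 CPM with METTL3 and at 427.5, 456.7 and 442.6 CPM with the vector, which is 648.0 ± 115.4 and 442.3 ± 14.6 CPM (SD, n = 3 each). The lowest METTL3 library was thus above the highest vector library. Its log2 difference was 0.55 (standard error 0.147, adjusted p = 0.433 from edgeR). TRIM22, a ubiquitin ligase that restricts several viruses, had the largest difference, 0.72 (standard error 0.393, adjusted p = 0.641 from edgeR). It was at 5.98, 2.74 and 2.35 CPM with METTL3 and at 3.15, 1.93 and 1.67 CPM with the vector, so METTL3 replicates 2 and 3 were below vector replicate 1. After LGALS3BP, the next in size was UBA7, the enzyme that activates ISG15 for conjugation, at 23.1, 13.5 and 14.2 CPM with METTL3 and 11.7, 12.2 and 11.5 CPM with the vector. Its log2 difference was 0.52 (standard error 0.211, adjusted p = 0.574 from edgeR), and METTL3 replicate 1 was far above the other 5 libraries.

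The second comparison set replicate 1 of both groups against replicates 2 and 3, with the group as a term in the model. Of the 48 genes, 16 rose in replicate 1 and 0 fell, compared with 4.25% of all tested genes that rose and 4.81% that fell (edgeR, adjusted p under 0.05). A positive difference was found for 40 of the 48, with a median log2 difference of 0.342, and the median of all genes was 0.043. The genes that rose were ISG15, UBE2L6, USP18, IFITM1, MX1, GBP1, RSAD2, CMPK2, PARP9, PARP14, SAMD9L, TRIM22, IFI6, IFI27, IFI44L and RTP4. Their log2 differences ran from 0.443 for IFI6 to 1.31 for CMPK2. In both groups replicate 1 lay above replicates 2 and 3 for 30 of the 48 and below them for 3, whereas the shares of all genes were 23.7% and 20.8%. Vector control replicate 1 was the highest of the 6 libraries for 23 genes and METTL3 replicate 1 for 17, and the corresponding shares of all genes were 30.1% and 25.1%.

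The calls for replicate 1 depended on the libraries used. Without METTL3 replicate 1, so that vector control replicate 1 alone carried the difference, 31 of the 48 were called higher, and the calls among all genes, in either direction, went from 1997 to 9028. The count was 3 of the 48 without METTL3 replicate 2 (264 of all genes), 4 without METTL3 replicate 3 (629), 5 without vector control replicate 2 (776), 2 without vector control replicate 3 (233) and 21 without vector control replicate 1 (5899). The number of these genes called thus fell and rose with the number called in the whole table. UBE2L6 and IFI27 stayed called in all of these fits, and CMPK2 in all but the one without vector control replicate 3 (adjusted p = 0.0527 from edgeR). Other measures moved with replicate 1. The summed level of the misc_RNA class, which holds the 7SL RNA genes, was 134.9, 60.5 and 47.8 CPM with METTL3 and 211.3, 50.1 and 43.6 CPM with the vector. Of the markers of other cell types, 1 of 4 leukocyte genes, CD14 (log2 difference 0.56, adjusted p = 0.0250), and 1 of 2 endothelial genes, PECAM1 (0.99, adjusted p = 0.0267, both from edgeR), rose in replicate 1. CD14 was at 7.02 to 11.4 CPM and PECAM1 at 4.67 to 21.4 CPM over the 6 libraries. The part of these measures in the result was not tested.

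**Figure D3:**
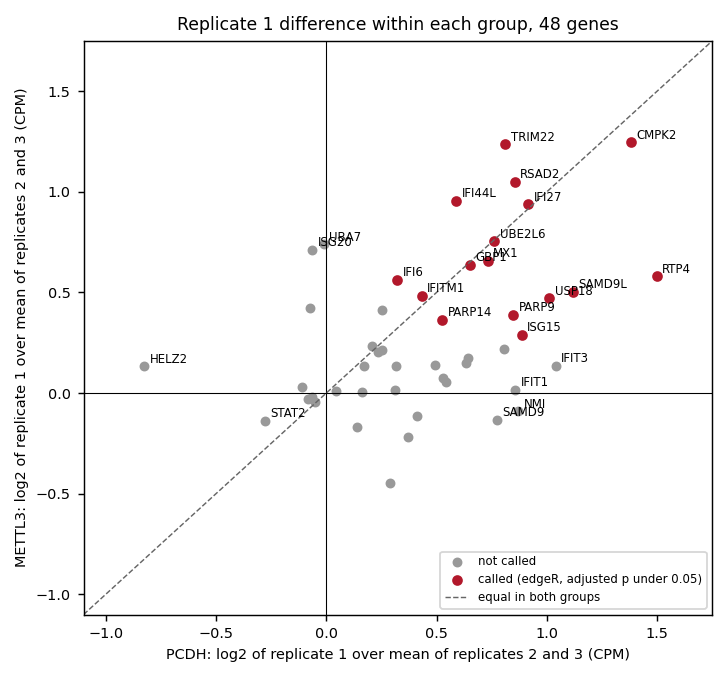
Log2 of replicate 1 over the mean of replicates 2 and 3 for each of the 48 genes, within the vector control on the horizontal and within METTL3 on the vertical axis, with called genes in red. The dashed line marks equal differences. The median was 0.463 in the vector control and 0.189 with METTL3, and IFIT1, IFIT3, NMI and SAMD9 lie far to the right at a vertical value near 0.

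Another model kept replicate 1 as a term and asked again for the METTL3 effect. It called 1 of the 48 genes, IFI27, which fell, and 0 that rose, compared with 0.481% of all genes that fell and 0.694% that rose. At an unadjusted p under 0.05 in edgeR, 7 of the 48 had higher and 4 lower values, with 3697 of all 22038 genes at that level in either direction. DESeq2 called 3 of the 48 higher and 2 lower, and 1200 of all genes. The log2 difference of IFI27 was -0.45 (standard error 0.0769, adjusted p = 0.0463 from edgeR). This call was lost without METTL3 replicate 2 (adjusted p = 0.406), METTL3 replicate 3 (0.234), vector control replicate 2 (0.210) or vector control replicate 3 (0.380, all from edgeR). Without METTL3 replicate 1 the model called 13 of the 48 higher and 5 lower, and without vector control replicate 1 it called 14 higher and 5 lower. The calls among all genes were then 3300 and 3273, compared with 259 on all libraries. In both of these fits the replicate 1 term takes up the only replicate 1 library left. The METTL3 difference then comes from replicates 2 and 3 alone, so these counts are not separate from the fit in replicates 2 and 3 below.

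The METTL3 difference was then compared between replicate 1 and replicates 2 and 3, as an interaction. It was lower in replicate 1 for 17 genes of the 48 and higher for 4, compared with 15.5% and 14.7% of all tested genes (edgeR, adjusted p under 0.05). The median interaction was -0.106 on the log2 scale and 0.001 for all genes. METTL3 itself had a negative interaction, -0.36 (standard error 0.094), so its own difference was smaller in replicate 1. The part of this smaller METTL3 difference in the result was not tested. Within replicate 1 the METTL3 library was the higher of the pair for 22 and the lower for 26 genes, within replicate 2 it was the higher for 39, and within replicate 3 for 36. The direction was higher in all 3 pairs for 18 genes and lower in all 3 for 5. The shares of all genes with these directions within replicates were not counted, so these counts are not read as particular to the 48. The interaction rests on 1 library of each group in replicate 1, and its spread is estimated from replicates 2 and 3. Both replicate 1 libraries are needed to fit it, so they were kept in all of its alternatives. Of the 21 calls, 18 held under every alternative tried. DDX60L was lost under all of them, IFIT5 with DESeq2 (adjusted p = 0.0642), and with edgeR without a filter on low counts (0.0585) or without any of METTL3 replicate 2 (0.0665), METTL3 replicate 3 (0.0882), vector control replicate 2 (0.0640) or vector control replicate 3 (0.0503), and IFI44 without METTL3 replicate 3 (0.0751 from edgeR). DDX60L was at 0.113 without METTL3 replicate 2, 0.0840 without METTL3 replicate 3, 0.0515 without vector control replicate 2 and 0.0933 without vector control replicate 3 in the same test.

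In replicates 2 and 3 alone, 13 of the 48 genes rose with METTL3 and 5 fell, compared with 6.66% and 8.59% of the 22046 genes tested there (edgeR, adjusted p under 0.05). The genes that rose were ISG15, IFIT1, IFIT2, IFIT3, GBP1, ZNFX1, PARP9, PARP14, DTX3L, SAMD9, SAMD9L, NMI and LGALS3BP. Those that fell were IFITM2, ISG20, IFI6, IFI27 and IFI35. The direction was positive for 36 of the 48, with a median log2 difference of 0.116 and a median over all genes of -0.003. Both groups hold 2 libraries in this comparison. Of the 13 genes that rose, 8 were also called lower in replicate 1 by the interaction, a test that uses the same 4 libraries. The interaction subtracts the difference in replicates 2 and 3, and the share of all genes with both calls was not counted. The 8 are therefore not read as particular to the 48. All 5 epithelial markers were also called higher with METTL3 in replicates 2 and 3, with CDH1 at a log2 difference of 0.912 and KRT8 at 0.230, and 4 of them had a called negative interaction. The endothelial marker PECAM1 was also called higher there (0.69, adjusted p = 0.00238) and had a positive interaction (0.78, adjusted p = 0.0131, both from edgeR). The part of these markers in the result was not tested.

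Leaving out METTL3 replicate 2 reduced the 13 genes to 8. GBP1 (adjusted p = 0.308), PARP14 (0.255), DTX3L (0.131), ZNFX1 (0.130) and PARP9 (0.0636) were lost there. IFIT1 (0.163) and DTX3L (0.0950) were lost without vector control replicate 2, PARP14 (0.0519) without vector control replicate 3, and IFI35 (0.0531, all from edgeR) without METTL3 replicate 3. The other 11 of the 18 calls held under every alternative.

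**Figure D4:**
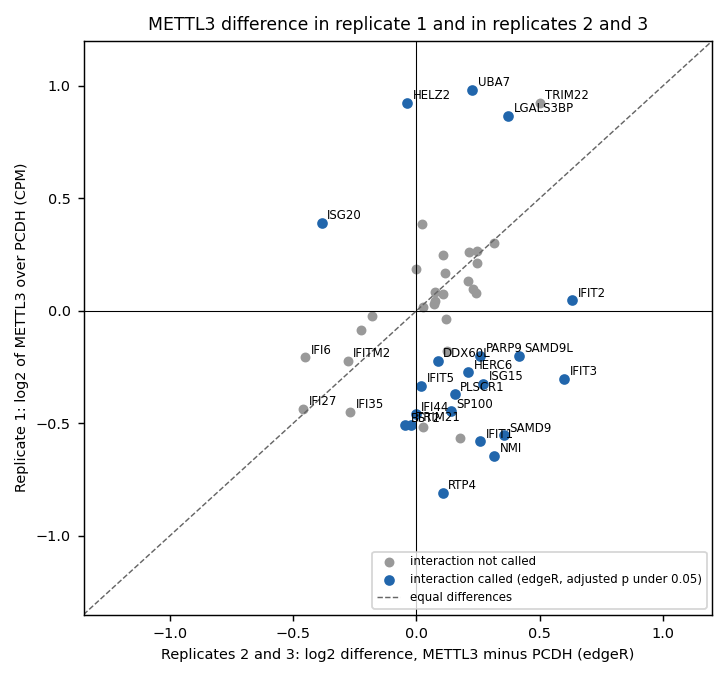
METTL3 difference of each of the 48 genes, as the log2 difference fitted by edgeR in replicates 2 and 3 on the horizontal axis and as the log2 ratio of CPM in replicate 1 on the vertical axis. Genes with a called interaction are blue, and the dashed line marks equal differences. Of the 21 blue points, 17 lie below the line and 4 above it, among them HELZ2, UBA7, LGALS3BP and ISG20.

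The IFIT genes encode proteins that bind foreign RNA ends and block their translation. IFIT1, IFIT2, IFIT3 and IFIT5 lie next to each other on chromosome 10, and all 4 had a negative interaction. IFIT1 (ENSG00000185745.10, chromosome 10, 89392546 to 89406487) was at 25.6, 25.4 and 25.2 CPM with METTL3 and at 38.3, 20.02 and 22.3 CPM with the vector. The METTL3 libraries were nearly equal, at 25.4 ± 0.192 CPM (SD, n = 3), and lay between vector replicate 1 and the other vector libraries, whose group was at 26.9 ± 9.96 CPM (SD, n = 3). The interaction was -0.84 on the log2 scale (standard error 0.119, adjusted p = 0.000213), and in replicates 2 and 3 the METTL3 difference was 0.26 (standard error 0.0719, adjusted p = 0.0250, both from edgeR). IFIT3, which stabilises IFIT1, was at 29.2, 25.3 and 27.7 CPM with METTL3 and at 36.0, 17.5 and 17.5 CPM with the vector, with an interaction of -0.90 (standard error 0.117, adjusted p = 0.000122 from edgeR). IFIT2 was at 26.5, 23.1 and 22.5 CPM with METTL3 and at 25.7, 14.8 and 14.6 CPM with the vector. Here the replicate 1 libraries were close to each other, while in replicates 2 and 3 the METTL3 libraries were higher, with an interaction of -0.59 (standard error 0.114, adjusted p = 0.00176 from edgeR). The difference in replicates 2 and 3 was 0.63 for IFIT2 (standard error 0.0698, adjusted p = 2.4e-05) and 0.60 for IFIT3 (standard error 0.0705, adjusted p = 4.3e-05, both from edgeR). IFIT5 was at 27.6, 24.98 and 25.02 CPM with METTL3 and 34.7, 24.6 and 24.7 CPM with the vector, so only vector replicate 1 stood out, with an interaction of -0.35 (standard error 0.106, adjusted p = 0.0228 from edgeR).

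**Figure D5:**
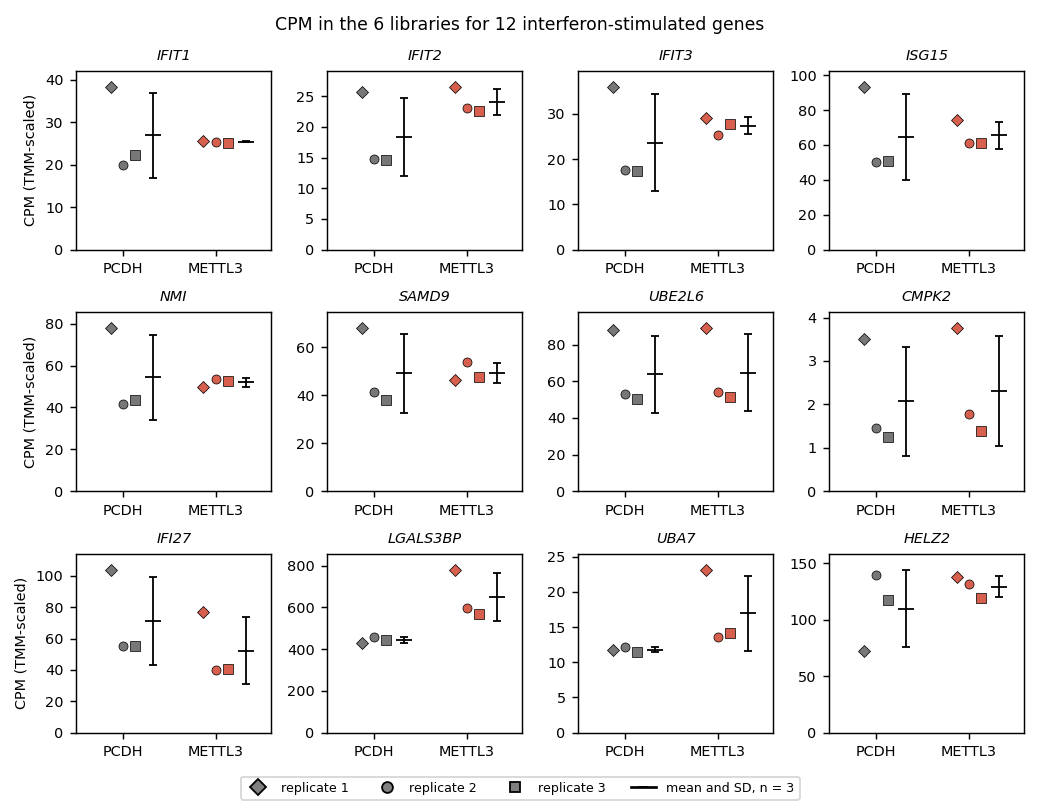
CPM of 12 genes in each of the 6 libraries, vector control in gray and METTL3 in red, with diamonds for replicate 1, circles for replicate 2 and squares for replicate 3, and bars for the mean and SD (n = 3). In IFIT1, IFIT3, NMI and SAMD9 the gray diamond stands alone at the top, in UBE2L6 and CMPK2 both diamonds do, and in LGALS3BP and UBA7 all red points lie above the gray ones.

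ISG15 is a ubiquitin-like protein that is attached to other proteins by UBA7, UBE2L6 and a HERC ligase, which in humans is mainly HERC5, and that is removed by USP18. ISG15 (ENSG00000187608.10, chromosome 1, 1001138 to 1014540) was at 74.6, 61.0 and 61.0 CPM with METTL3 and at 93.3, 50.1 and 50.9 CPM with the vector. Both replicate 1 libraries were the highest of their group, and the METTL3 libraries were above the vector libraries in replicates 2 and 3 and below in replicate 1. It rose in replicate 1 (log2 difference 0.60, standard error 0.134, adjusted p = 0.0376), its interaction was -0.60 (standard error 0.0916, adjusted p = 0.000370), and with METTL3 in replicates 2 and 3 it rose by 0.27 (standard error 0.0550, adjusted p = 0.00369, all from edgeR). UBE2L6, the conjugating enzyme, was at 89.0, 54.1 and 51.4 CPM with METTL3 and at 87.9, 53.0 and 50.6 CPM with the vector. The groups were almost equal within each replicate, and replicate 1 was higher in both, by a fold of 1.69 with METTL3 and 1.70 with the vector (log2 difference 0.76, standard error 0.0818, adjusted p = 0.00504 from edgeR). The METTL3 difference on all libraries was 0.02. UBA7 behaved otherwise: the values given above put only METTL3 replicate 1 apart, with an interaction of 0.75 (standard error 0.135, adjusted p = 0.00106 from edgeR). USP18 was at 4.96, 3.95 and 3.21 CPM with METTL3 and 7.10, 3.81 and 3.23 CPM with the vector, and rose in replicate 1 by 0.75 (standard error 0.174, adjusted p = 0.0412 from edgeR). Of the 50-base stretches of its transcript 52.9% also occur in USP41 and related genes, so its counts are uncertain. HERC6 was at 14.3, 12.9 and 12.9 CPM with METTL3 and at 17.3, 11.0 and 11.4 CPM with the vector, with an interaction of -0.48 (standard error 0.133, adjusted p = 0.0144 from edgeR). HERC5 was called in no model and ranged from 2.74 to 4.22 CPM.

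NMI and the IFI genes fell into separate patterns. NMI (ENSG00000123609.11, chromosome 2, 151270470 to 151289894) binds STAT proteins and IFI35, and had the most negative interaction of the 48, -0.96 (standard error 0.0972, adjusted p = 3.3e-05 from edgeR). It was at 49.8, 53.7 and 52.5 CPM with METTL3 and at 77.9, 41.6 and 43.7 CPM with the vector, so vector replicate 1 was above all others and vector replicates 2 and 3 were below all others. In replicates 2 and 3 it rose with METTL3 by 0.32 (standard error 0.0580, adjusted p = 0.00182 from edgeR). IFI35, its binding partner, was at 35.1, 32.8 and 31.2 CPM with METTL3 and at 47.9, 38.9 and 38.1 CPM with the vector. Its METTL3 libraries were all below the vector libraries, and in replicates 2 and 3 it fell by 0.27 on the log2 scale (standard error 0.0609, adjusted p = 0.00745 from edgeR).

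IFI27 (ENSG00000165949.12, chromosome 14, 94104836 to 94116695), a small protein of mitochondrial and other membranes that is widely used as a marker of interferon response, combined both differences. It was at 76.8, 39.6 and 40.6 CPM with METTL3 and at 103.9, 55.3 and 55.0 CPM with the vector. Within every replicate the METTL3 library was lower, by -0.44, -0.48 and -0.44 on the log2 scale, and within both groups replicate 1 was higher, by a fold of 1.92 and 1.89. The replicate 1 difference was 0.93 (standard error 0.0791, adjusted p = 0.00300), and in replicates 2 and 3 IFI27 fell with METTL3 by 0.46 on the log2 scale (standard error 0.0559, adjusted p = 5.6e-05, both from edgeR). The METTL3 difference in replicate 1 was close to that in replicates 2 and 3, with an interaction of 0.02 (standard error 0.0924, adjusted p = 0.889 from edgeR). On all 6 libraries without the replicate term its METTL3 difference had the same size, -0.45, but a standard error of 0.325 in place of 0.0769. IFI6, another small membrane protein, was at 15.5, 10.2 and 10.8 CPM with METTL3 and at 17.9, 13.9 and 14.7 CPM with the vector. It fell in replicates 2 and 3 by 0.45 on the log2 scale (standard error 0.0818, adjusted p = 0.00161 from edgeR). In replicate 1 it rose by 0.44 (standard error 0.104, adjusted p = 0.0422 from edgeR). LINC02574 shares 21.9% of its 50-base stretches. IFI44 was at 13.4, 12.5 and 12.9 CPM with METTL3 and at 18.4, 12.6 and 12.9 CPM with the vector, so that vector replicate 1 alone was high, with an interaction of -0.46 (standard error 0.132, adjusted p = 0.0185 from edgeR). IFI44L was at 2.38, 1.33 and 1.13 CPM with METTL3 and at 1.82, 1.19 and 1.24 CPM with the vector, and rose in replicate 1 by 0.78 (standard error 0.174, adjusted p = 0.0371 from edgeR).

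SAMD9 and SAMD9L are neighboring genes on chromosome 7 whose products restrict poxviruses and slow cell growth. SAMD9 was at 46.3, 54.1 and 47.5 CPM with METTL3 and at 67.9, 41.5 and 37.9 CPM with the vector. As for NMI, vector replicate 1 was highest and the other vector libraries were lowest, and the interaction was -0.91 (standard error 0.122, adjusted p = 0.000165 from edgeR). SAMD9L was at 23.8, 18.1 and 15.6 CPM with METTL3 and at 27.4, 13.6 and 11.6 CPM with the vector. It rose in replicate 1 by 0.82 (standard error 0.157, adjusted p = 0.0242), in contrast to a SAMD9 difference of 0.34 that was not called (adjusted p = 0.293, both from edgeR). The difference between these genes was not tested. The interaction of SAMD9L was -0.62 (standard error 0.158, adjusted p = 0.00976 from edgeR). With METTL3 in replicates 2 and 3, SAMD9 rose by 0.35 (standard error 0.0709, adjusted p = 0.00354) and SAMD9L by 0.42 (standard error 0.0956, adjusted p = 0.00870, both from edgeR).

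PARP9, DTX3L and PARP14 act in ADP-ribosylation, and PARP9 forms a complex with the ubiquitin ligase DTX3L. Their genes lie close together on chromosome 3, and PARP9 and DTX3L are read in opposite directions from starts that overlap. PARP9 was at 64.4, 51.1 and 47.4 CPM with METTL3 and at 74.0, 41.6 and 40.6 CPM with the vector. PARP14 was at 99.5, 82.8 and 71.9 CPM with METTL3 and at 94.1, 67.5 and 63.3 CPM with the vector. Both rose in replicate 1, by 0.62 (standard error 0.117, adjusted p = 0.0230) and 0.45 (standard error 0.0984, adjusted p = 0.0363, both from edgeR). PARP9 alone of the 3 had a called interaction, -0.46 (standard error 0.101, adjusted p = 0.00378 from edgeR). DTX3L, at 67.3, 70.2 and 66.2 CPM with METTL3 and 56.2, 57.4 and 60.3 CPM with the vector, had a replicate 1 difference of -0.04 (adjusted p = 0.791 from edgeR). All its METTL3 libraries were above all vector libraries, by 0.26, 0.29 and 0.13 on the log2 scale within the 3 replicates. With METTL3 in replicates 2 and 3 the log2 difference was 0.26 for PARP9, 0.24 for PARP14 and 0.21 for DTX3L (standard errors 0.0600, 0.0689 and 0.0586, adjusted p = 0.00872, 0.0300 and 0.0245 from edgeR).

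Among the enzymes that act on nucleotides and RNA, RSAD2 makes a chain-terminating nucleotide and CMPK2, its neighbor on chromosome 2 in opposite orientation, is a nucleotide kinase. CMPK2 was at 3.75, 1.78 and 1.38 CPM with METTL3 and at 3.51, 1.45 and 1.25 CPM with the vector. Replicate 1 was higher by a fold of 2.37 with METTL3 and 2.60 with the vector, and its log2 difference of 1.31 (standard error 0.166, adjusted p = 0.00708 from edgeR) was the largest of the 48. RSAD2 was at 2.62, 1.51 and 1.02 CPM with METTL3 and at 2.30, 1.23 and 1.31 CPM with the vector, and rose in replicate 1 by 0.95 (standard error 0.194, adjusted p = 0.0294 from edgeR). Neither gene was called for METTL3 in any model. ISG20, an exonuclease that degrades viral RNA, was at 19.4, 11.9 and 11.8 CPM with METTL3 and at 14.8, 15.2 and 15.7 CPM with the vector. Its METTL3 replicate 1 library was above and the other METTL3 libraries were below all vector libraries, with an interaction of 0.77 (standard error 0.129, adjusted p = 0.000638) and a fall of 0.39 on the log2 scale in replicates 2 and 3 (a log2 difference of -0.39, standard error 0.0776, adjusted p = 0.00344, both from edgeR).

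Among the dynamin-like GTPases and guanylate-binding proteins, MX1 and GBP1 rose in replicate 1. MX1, which traps viral nucleocapsids, was at 40.0, 27.3 and 23.4 CPM with METTL3 and at 36.5, 22.8 and 21.1 CPM with the vector, a replicate 1 difference of 0.69 (standard error 0.0990, adjusted p = 0.00934 from edgeR). MX2, next to MX1 on chromosome 21, was at 65.8, 67.7 and 63.1 CPM with METTL3 and at 63.9, 64.2 and 59.7 CPM with the vector, with a replicate 1 difference of 0.03 (adjusted p = 0.877 from edgeR). The pair thus differed in its values for replicate 1, though the difference between MX1 and MX2 was not tested. GBP1 was at 23.7, 16.6 and 13.9 CPM with METTL3 and at 19.2, 12.1 and 12.4 CPM with the vector. It rose in replicate 1 by 0.64 (standard error 0.105, adjusted p = 0.0143) and with METTL3 in replicates 2 and 3 by 0.32 (standard error 0.0912, adjusted p = 0.0305, both from edgeR), and 14.0% of its 50-base stretches occur in GBP1P1, GBP3 or GBP2. GBP2 ranged from 36.9 to 53.6 CPM and was not called in any model.

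IFITM proteins sit in membranes and block the fusion of viruses with the cell, and BST2, or tetherin, holds budding virus at the surface. IFITM2 was at 107.2, 109.2 and 109.3 CPM with METTL3 and at 125.1, 127.0 and 137.6 CPM with the vector. All 3 METTL3 libraries were below all vector libraries and replicate 1 did not stand apart, with a log2 difference of -0.26 on all libraries (standard error 0.102, adjusted p = 0.569) and of -0.28 in replicates 2 and 3 (standard error 0.0564, adjusted p = 0.00360, both from edgeR). IFITM1 was at 39.5, 28.1 and 28.5 CPM with METTL3 and at 35.2, 24.9 and 27.3 CPM with the vector, and rose in replicate 1 by 0.46 (standard error 0.0876, adjusted p = 0.0235 from edgeR). IFITM3, the most abundant of the family, ranged from 313.7 to 393.0 CPM and was not called. These neighbors on chromosome 11 share 55.1% of the 50-base stretches of IFITM1, 20.8% of those of IFITM3 and 12% of those of IFITM2 with other genes, so counting could have split their reads. BST2 was at 121.2, 103.4 and 111.1 CPM with METTL3 and at 172.5, 111.9 and 109.3 CPM with the vector. Vector replicate 1 alone was high, with an interaction of -0.46 (standard error 0.0942, adjusted p = 0.00231 from edgeR).

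Of the helicases, HELZ2, a transcriptional coactivator, was at 137.7, 131.7 and 119.3 CPM with METTL3 and at 72.6, 140.1 and 117.4 CPM with the vector. Here vector replicate 1 was low, in contrast to most of the 48, and the interaction of 0.96 (standard error 0.137, adjusted p = 0.000347 from edgeR) matched in size the most negative one, that of NMI. ZNFX1, which binds RNA in antiviral defense, was at 127.6, 122.8 and 109.7 CPM with METTL3 and at 110.3, 100.9 and 95.2 CPM with the vector, and rose with METTL3 in replicates 2 and 3 by 0.24 (standard error 0.0622, adjusted p = 0.0154 from edgeR). Within each of the 3 replicates the METTL3 library was higher, by 0.21, 0.28 and 0.20 on the log2 scale. DDX60L was at 39.6, 45.1 and 44.02 CPM with METTL3 and at 46.2, 42.5 and 41.4 CPM with the vector, an interaction of -0.31 (standard error 0.0984, adjusted p = 0.0291 from edgeR). DDX60, its relative, ranged from 11.9 to 15.0 CPM and was not called.

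TRIM21, an antibody receptor and ubiquitin ligase, was at 27, 25.2 and 26.8 CPM with METTL3 and at 38.4, 24.98 and 27.7 CPM with the vector. SP100, a component of nuclear bodies, was at 74.6, 86.9 and 86.8 CPM with METTL3 and at 101.6, 76.8 and 80.5 CPM with the vector. For both, vector replicate 1 was the highest library, and the interactions were -0.49 (standard error 0.121, adjusted p = 0.00828) and -0.59 (standard error 0.0919, adjusted p = 0.000409, both from edgeR). TRIM22, whose values stand above, rose in replicate 1 by 1.03 (standard error 0.162, adjusted p = 0.0130 from edgeR), and its METTL3 difference was 0.93, 0.50 and 0.50 on the log2 scale within the 3 replicates. The corresponding test in replicates 2 and 3 gave a difference of 0.50 and an adjusted p of 0.0592 (edgeR).

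PLSCR1, a phospholipid scramblase with antiviral activity, was at 68.5, 72.9 and 75.4 CPM with METTL3 and at 88.5, 65.0 and 68.1 CPM with the vector, with an interaction of -0.53 (standard error 0.0946, adjusted p = 0.00103 from edgeR). RTP4, a chaperone of receptors that also inhibits flaviviruses, was at 4.18, 2.87 and 2.73 CPM with METTL3 and at 7.34, 2.32 and 2.88 CPM with the vector. Its vector replicate 1 library was higher than the mean of the other vector libraries by a fold of 2.82, the largest such ratio of the 48, and by a fold of 1.495 with METTL3. RTP4 rose in replicate 1 by 1.06 (standard error 0.217, adjusted p = 0.0292) and had an interaction of -0.92 (standard error 0.238, adjusted p = 0.0101, both from edgeR). For LGALS3BP the interaction was 0.49 (standard error 0.0881, adjusted p = 0.000979), and in replicates 2 and 3 alone it rose by 0.37 (standard error 0.0522, adjusted p = 0.000200, both from edgeR). XAF1, which antagonises inhibitors of apoptosis, and EPSTI1 were low, from 1.31 to 1.85 and from 1.754 to 2.69 CPM, and neither was called. Opposite-strand exons of PRAL overlap 38.3% of the exonic bases of XAF1.

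The signal transducers and transcription factors among the 48 were called in no model. STAT2 was at 38.8, 41.7 and 43.6 CPM with METTL3 and at 32.6, 40.4 and 38.6 CPM with the vector. IRF1, the first factor induced by interferon gamma, ranged from 47.7 to 59.4 CPM, and IRF7, which drives the interferon genes, from 30.6 to 34.2 CPM. IRF9 ranged from 2.45 to 2.83 CPM, but 92.8% of its 50-base stretches also lie in a readthrough gene on the same strand, so its counts are uncertain. The replicate 1 differences of these 4 genes ran from -0.21 for STAT2 to 0.22 for IRF1 on the log2 scale.

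In total 37 of the 48 genes were called in at least 1 of the 5 models and 11 in none. The corresponding share of all genes was not counted, so the total is not read as particular to the 48. The interaction alone called 6652 of all 22038 genes, and the fit in replicates 2 and 3 called 3362 of 22046. Of the 16 genes that rose in replicate 1, ISG15, PARP9, SAMD9L and RTP4 also had a called interaction, and 12 did not. The replicate 1 model has no interaction term, so an interaction adds to the spread it measures and makes a call there harder to reach. The share of all genes with both calls was not counted, so this split is not read as particular to the 48. The response element core was present in the promoters of 11 of the 14 genes that rose in replicate 1 and have a promoter in the table, and in 15 of the 25 that were not called there. It was found for 12 of 16 genes with a negative and 2 of 3 with a positive interaction, for 9 of 11 that rose with METTL3 in replicates 2 and 3 and for 3 of 4 that fell. UBE2L6 and CMPK2, with large replicate 1 differences, and HELZ2 and SAMD9L had a promoter in the table without these letters in the window.

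Interferon transcripts themselves were at or near the limit of detection. Of 21 interferon ligand genes, only IFNE passed the filter, at 0.274 to 0.780 CPM, and 8 had 0 counts in all 6 libraries, which allows up to 0.0239 to 0.0310 CPM in a library when 3 counts are taken as the limit. Their summed level was at most 0.931 CPM. The 15 receptor and signaling genes were all expressed. None was called for METTL3 on all libraries by edgeR, and 2 rose and 1 fell in replicate 1. IFNGR1, a chain of the interferon gamma receptor, was at 118.4, 79.0 and 81.5 CPM with METTL3 and at 136.5, 70.8 and 74.7 CPM with the vector, a replicate 1 difference of 0.74 (adjusted p = 0.00883 from edgeR). IL10RB, a receptor chain for interferon lambda, rose by 0.91 at 0.552 to 1.52 CPM, and SOCS3, an inhibitor of JAK kinases, fell (log2 difference -0.70, adjusted p = 0.0149 from edgeR). In all, 4 of the 15 had a negative and 2 a positive interaction, and in replicates 2 and 3 only SOCS3 was called, lower with METTL3 (log2 difference -0.25, adjusted p = 0.00667 from edgeR).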

How the data were processed

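RNA from 3 METTL3-overexpressing and 3 vector control OVCAR5 libraries was sequenced after poly(A) selection. The labels describe a stranded paired-end TruSeq kit and the study's methods a single-end NEBNext kit, and the strand setting of the counting is not given in the sources used here, so genes with overlapping antisense exons are uncertain. Per the submitters' processing notes, fastp, HISAT2 and featureCounts of Subread were used with GRCh38. The deposited values are raw counts per gene that the authors did not normalize. Of the counts from 1 to 20, 67.6% to 70.5% were even, as if each read pair had been counted by both mates, and division of the counts by 2 was therefore tried.

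Gene identifiers, without their version, were matched to GENCODE release 44, which named 60463 of the 60649 rows. In R 4.3.3, genes that passed filterByExpr of edgeR 4.0.16 were scaled by TMM and tested with glmQLFit and glmQLFTest, with Benjamini-Hochberg adjustment over all genes tested. Standard errors are the log2 difference over the square root of F. The 5 models were METTL3 on all libraries, replicate 1 against 2 and 3 with the group as a term, METTL3 with replicate 1 as a term, their interaction, and METTL3 in replicates 2 and 3. CPM per kb divides by the length of the canonical transcript. Genes sharing 50-base stretches with others were found from GENCODE transcripts. One gene of the receptor and signaling list is not reported here. The scripts were tested on simulated counts. Every gene of the list is described, and tests are given in full for those with an adjusted p under 0.05 in any model and for the 3 of largest METTL3 difference on all libraries among those with at least 1 CPM.

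The genes, the lists and the split of replicate 1 from replicates 2 and 3 were chosen with earlier results of these data known. Replicate numbers are shared between groups, and deviations from the group mean correlated at 0.357, 0.252 and 0.272 for libraries with the same number, each above the minimum of 0.1, and libraries of the same number were treated as pairs in that alternative. This rests on the values, and METTL3 replicate 2 with vector replicate 3 reached 0.382. Alternatives were DESeq2 1.42.0, RLE size factors, no filter, counts divided by 2, the replicate number as a block and each library left out in turn. The block was used only for METTL3 on all libraries and in replicates 2 and 3. For the interaction and the fit in replicates 2 and 3, only libraries of replicates 2 and 3 were left out. Limits on counts of 0 cover counting error only.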

Additional observations from a re-analysis of the deposited data

Results flagged for a closer look

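For 21 genes the METTL3 difference in replicate 1 differed from that in replicates 2 and 3 by the interaction test of edgeR (adjusted p under 0.05). The values are log2 differences, replicate 1 minus replicates 2 and 3. A negative value was found for NMI (-0.96), RTP4 (-0.919), SAMD9 (-0.909), IFIT3 (-0.903), IFIT1 (-0.842), SAMD9L (-0.618), ISG15 (-0.596), SP100 (-0.589), IFIT2 (-0.587), PLSCR1 (-0.527), TRIM21 (-0.486), HERC6 (-0.485), BST2 (-0.464), PARP9 (-0.46), IFI44 (-0.458), IFIT5 (-0.354) and DDX60L (-0.311). It was positive for HELZ2 (0.959), ISG20 (0.775), UBA7 (0.752) and LGALS3BP (0.495). The shares of all tested genes with a called interaction were similar in both directions, 15.5% lower and 14.7% higher. Replicate 1 holds 1 library of each group, so a difference of that library from its group and a difference between replicates cannot be told apart.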

How the results depend on the processing

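No called result reversed. METTL3 on all 6 libraries gave 0 genes of the 48 called higher in edgeR's test, 1 with DESeq2, 1 without a filter, 0 to 2 with 1 library left out (2 without vector control replicate 1), but 13 with replicates 2 and 3 only. It gave 0 called lower, 5 with replicates 2 and 3 only and 0 in all fits without 1 library. The median log2 difference ran from -0.027 to 0.203 over the fits that left out 1 library. For replicate 1, 16 rose, and 2 (without vector control replicate 3) to 31 (without METTL3 replicate 1) rose with 1 library left out. There, 0 fell, 1 without a filter and 0 to 2 with 1 library left out. With replicate 1 as a term, 0 rose with METTL3, 3 with DESeq2, 4 without a filter and 0 to 14 with 1 library left out, and 1 fell, 2 with DESeq2, 0 with RLE size factors and 0 to 5 with 1 library left out. In replicates 2 and 3, 13 rose and 8 to 15 with 1 library left out, 8 of them without METTL3 replicate 2. With the replicate block, 19 rose and 6 fell in replicates 2 and 3, and METTL3 on all libraries gave 0 in either direction. In replicates 2 and 3, 5450 of all genes were called with the block, compared with 3362 without the block. Without a filter, the calls among all genes went from 0 to 560 for METTL3 on all libraries. They went from 259 to 1807 with replicate 1 as a term and from 1997 to 4220 for replicate 1. The block changed none of the 18 calls. Under every alternative, 18 of 21 calls of the interaction, 11 of 18 in replicates 2 and 3, 2 of 16 for replicate 1 and 0 of 1 with replicate 1 as a term held. Alternatives differed between models, and both replicate 1 libraries were kept in all fits of the interaction, which needs them. The counts of calls held are thus not compared between models. Without 1 of the replicate 1 libraries, the METTL3 difference with replicate 1 as a term came from replicates 2 and 3 alone. Fits without a library had fewer samples. Leaving out 1 replicate 1 library nevertheless raised the calls among all genes for replicate 1 and for METTL3 with replicate 1 as a term. The causes of these changes were not tested. Genes under 5 CPM have the smallest counts, down to 103 in a library.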
